A study of Citrus sinensis with 6 samples.

Results

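Abscisic acid is a plant hormone best known for the responses of plants to drought and for seed dormancy, and in citrus peel it accompanies ripening and the loss of water. Plants cut it from carotenoids. Violaxanthin and neoxanthin are cleaved in the plastid to xanthoxin, which is turned into the hormone in the cytosol. The hormone is removed by hydroxylation, which leads to phaseic acid, or is stored as its glucose ester, from which it can be released again. The level of the hormone thus depends on both sides, and only transcripts were measured here.

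The 8 genes described are those whose gene name in the transcript tables is VDE, NSY, NCED, ABA2, CYP707A1, CYP707A3, CYP707A4 or AOG, out of 31688 genes in all. VDE, NSY, NCED and ABA2 are taken as the synthesis side, and CYP707A1, CYP707A3, CYP707A4 and AOG as the removal side. The genes were chosen by name. Roles given below are background knowledge attached to these symbols, since the files hold no product names.

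RNA came from the excised albedo, the white inner peel, of sweet orange fruit (Citrus sinensis) 3 days after an inoculation whose agent the labels do not name. In 3 libraries the fruit had received the antagonist yeast Rhodotorula mucilaginosa with 0.2 mM salicylic acid, and in the other 3 the yeast alone, so both groups received the yeast and no untreated fruit was analysed here. Nothing in the labels says that each library is a separate fruit, and p-values therefore describe the spread among these samples, which may be technical. Below, libraries are called salicylic acid replicates and yeast-only replicates, numbered as in the labels. The labels give no cultivar and no genome build, and the list of genes used here holds no defining marker of albedo, so the tissue label could not be checked.

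The libraries held 4.11 to 5.24 gigabases of covered sequence and 17017 to 17586 genes with at least 1 FPKM, a level scaled to transcript length and library size. Between libraries, r across genes was 0.968 to 0.977 within groups and 0.964 to 0.981 between groups. In this bulk tissue, fewer cells of a type and less RNA per cell cannot be told apart.

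All 8 genes had a mean of at least 1 FPKM over the 6 libraries and so entered the test. None of the 8 passed an adjusted p of 0.05 in limma, a linear model fitted to log2(FPKM + 1) over 17355 genes, of which 0.00576% passed. At an unadjusted p under 0.05 the members called were also 0, against 5.23% of all genes tested. That count was 2, NCED and CYP707A1, without salicylic acid replicate 3, and 1 without yeast-only replicate 1 (NCED) or 2 (CYP707A1), still with 0 past the adjusted threshold in limma. On the synthesis side 4 of 4 genes had a higher mean log2 level with salicylic acid, with a median difference of 0.24. Of these, VDE and NSY differed little, with larger absolute differences in 53.8% and 56.3% of the genes tested. VDE, as given below, works against the flow toward the hormone. On the removal side 1 of 4 was higher, CYP707A1, and the median difference was -0.20. Over all genes tested the median difference was 0.02 and 54.2% were higher. None of these differences in the 8 genes exceeded the spread between libraries by the test.

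The levels spanned a wide range. CYP707A1 was the most expressed of the 8, at a mean of 30.7 FPKM over the 6 libraries, above 75.4% of the genes tested. NCED followed at 21.8 FPKM, then ABA2 at 9.91, NSY at 8.97, AOG at 6.80, VDE at 5.84, CYP707A4 at 4.78 and CYP707A3 at 1.48 FPKM. Neighbours in this order overlapped in their ranges over the libraries, apart from the last. CYP707A3 lay below every other member in every library.

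**Figure D1:**
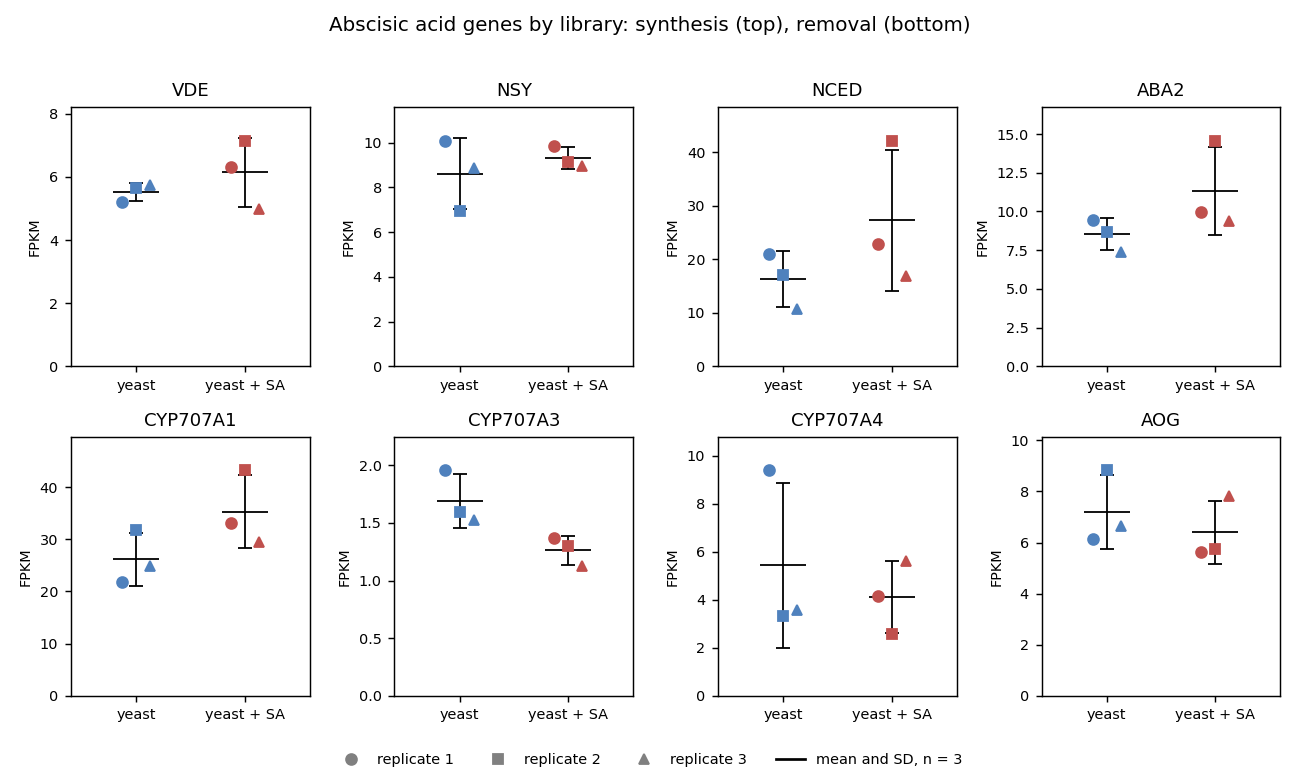
FPKM of the 8 genes in each library, with synthesis genes in the top row and removal genes in the bottom row, points for libraries, and a bar with whiskers for the mean and SD of 3 libraries. NCED spans 10.7 to 42.1 FPKM, and CYP707A3 is the gene whose groups do not overlap.

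The early synthesis genes act on the xanthophylls. VDE encodes violaxanthin de-epoxidase, which turns violaxanthin back into zeaxanthin and so works against the flow toward the hormone, although it is counted here with synthesis. The gene lies on NC_023050.1 from 28961583 to 28966601, in 6 exons. Salicylic acid replicates 1 to 3 had 6.32, 7.14 and 4.99 FPKM, and yeast-only replicates 1 to 3 had 5.20, 5.64 and 5.74 FPKM, and values below follow this order. The highest and the lowest value both came from libraries with salicylic acid, so the groups overlapped. The log2 difference was 0.12 (SE 0.17, 95% interval -0.27 to 0.51).

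NSY is named for neoxanthin synthase, which makes neoxanthin from violaxanthin, and lies on NC_023051.1 from 18663581 to 18666825. It stood at 9.85, 9.13 and 8.95 FPKM with salicylic acid and at 10.1, 6.92 and 8.85 FPKM without. Yeast-only replicate 1 was the highest library and yeast-only replicate 2 the lowest. The log2 difference of 0.11 (95% interval -0.27 to 0.49) became -0.020 without yeast-only replicate 2. Its transcript NM_001288932.1 overlaps LOC102611397, on the opposite strand, by 112 bases. The sources used here do not state whether reads were counted by strand, and LOC102611397 was at 0.317 to 2.12 FPKM.

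NCED encodes an epoxycarotenoid dioxygenase, the enzyme that cleaves the carotenoid to xanthoxin and is widely held to limit the pathway. The files place it on NC_023050.1 from 12076933 to 12078918 on the minus strand, as a single exon. It stood at 22.8, 42.1 and 16.9 FPKM with salicylic acid and at 21.1, 17.1 and 10.7 FPKM without. Salicylic acid replicate 2 was far above the other libraries, and salicylic acid replicate 3 was below yeast-only replicates 1 and 2. The means were 27.3 ± 13.2 and 16.3 ± 5.23 FPKM (SD, n = 3 each), a ratio of 1.67.

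The log2 difference of NCED was 0.66 (SE 0.33, 95% interval -0.10 to 1.41, adjusted p = 0.960 in limma over all genes). A larger absolute difference was found in 2.75% of the genes tested, and a smaller spread within groups in 95.6% of them. Without salicylic acid replicate 2 the difference was 0.30, and without yeast-only replicate 3 it was 0.40. Mean coverage of the transcript was 49.2 to 220 reads per base over the libraries.

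A second dioxygenase gene was on the fixed list of other pathway genes. This is LOC102578070, for which the reference gene table gives the synonym CitNCED2, while it gives CitNCED3 for NCED. LOC102578070 stood at 2.25, 3.90 and 2.39 FPKM with salicylic acid and at 3.02, 3.75 and 3.49 FPKM without, with overlapping groups and a log2 difference of -0.22 (SE 0.21). NCED was 10.1, 10.8 and 7.07 times as high as LOC102578070 with salicylic acid and 6.98, 4.56 and 3.07 times as high without. The groups did not overlap in this ratio, by a margin of 7.07 against 6.98, and the ratio was formed after the values were seen and was not tested.

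ABA2 is known from Arabidopsis as the dehydrogenase that turns xanthoxin into abscisic aldehyde, the last intermediate. It stood at 9.99, 14.6 and 9.38 FPKM with salicylic acid and at 9.47, 8.68 and 7.41 FPKM without. Only salicylic acid replicate 3, below yeast-only replicate 1, made the groups overlap. The means were 11.3 ± 2.83 and 8.52 ± 1.04 FPKM (SD, n = 3 each), and the log2 difference was 0.35 (SE 0.19, 95% interval -0.08 to 0.79). Without salicylic acid replicate 2 the difference was 0.17.

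ABA2 was the member with the most transcript models, 8 in all, on NC_023051.1 from 361971 to 366171 on the minus strand. Of these, 7 were annotated and 1, MSTRG.11143.7, was assembled from reads. Transcript NM_001288867.1, with 3 exons, carried 78.5%, 66.3% and 50.5% of the gene's FPKM with salicylic acid. With the yeast alone it carried 80.4%, 68.0% and 10.4%.

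Yeast-only replicate 3 thus stood apart in the makeup of ABA2. There NM_001288867.1 was at 0.772 FPKM and MSTRG.11143.7 at 5.04 FPKM, while in the other libraries they were at 4.73 to 9.65 and 0.954 to 2.61 FPKM. The models overlap in position, and the sources used here do not state how shared reads were divided among them. Summing annotated transcripts alone gave a log2 difference of 0.68 for the gene in place of 0.35, with 2.37 FPKM in yeast-only replicate 3.

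**Figure D2:**
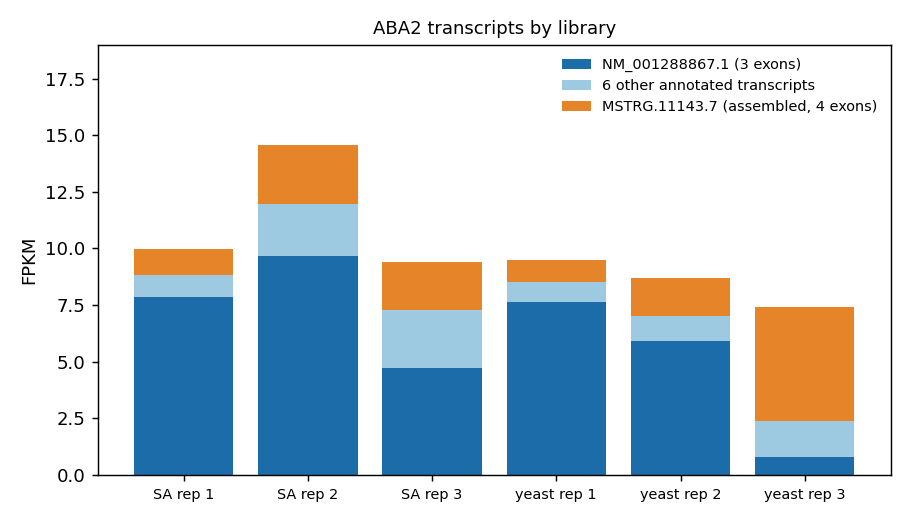
FPKM of ABA2 transcripts in each library, stacked as NM_001288867.1, the sum of 6 other annotated transcripts, and the assembled MSTRG.11143.7. In yeast-only replicate 3 the assembled model holds 68.0% of the total, against 10.1% to 22.4% in the other libraries.

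Tested one by one over 26605 transcripts, of which 0.0338% passed in limma, none of the members' 16 transcripts passed. Of the 16, 10 reached the mean of 1 FPKM needed to enter the test, and the 6 that did not were all annotated models of ABA2. NM_001288867.1 had a log2 difference of 0.79 (95% interval -0.68 to 2.25) and MSTRG.11143.7 of -0.13 (95% interval -1.24 to 0.98). At an unadjusted p under 0.05 the member transcripts were also 0, against 5.18% of all transcripts, and 0 or 1 under the alternatives.

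On the removal side, the CYP707A genes encode the cytochrome P450 enzymes that hydroxylate abscisic acid. CYP707A1, on NC_023051.1 from 19220484 to 19222914, stood at 33.1, 43.2 and 29.6 FPKM with salicylic acid and at 21.9, 31.8 and 24.8 FPKM without. Salicylic acid replicate 2 was again the highest library, and yeast-only replicate 2 lay above salicylic acid replicate 3. The means were 35.3 ± 7.06 and 26.1 ± 5.09 FPKM (SD, n = 3 each), a ratio of 1.35.

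CYP707A1 had the smallest unadjusted p of the 8 genes, 0.0513 in limma, with an adjusted p of 0.959. Its log2 difference was 0.42 (SE 0.19, 95% interval -0.003 to 0.84). A larger absolute difference was found in 8.71% of the genes tested. The log2 difference without salicylic acid replicate 2 was 0.27.

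CYP707A3, on NC_023053.1 from 3461693 to 3464742, was the only member whose groups did not overlap. It stood at 1.37, 1.30 and 1.12 FPKM with salicylic acid, below the 1.96, 1.59 and 1.53 FPKM of the yeast-only libraries. Groups failed to overlap in 10.2% of the genes tested, 4.56% with the lower and 5.68% with the higher values under salicylic acid, so 1 of 8 members is near this background. The means were 1.26 ± 0.127 and 1.69 ± 0.232 FPKM (SD, n = 3 each), with a log2 difference of -0.25 (SE 0.18, 95% interval -0.67 to 0.17, adjusted p = 0.973 in limma). Of 11 symbols on a fixed list for green tissue 3 were measured, with a summed level of 16.8 to 25.0 FPKM with salicylic acid and 24.4 to 29.2 FPKM without. Most of this sum in each library came from CHLASE1, a chlorophyllase gene, so the sum is not a measure of green tissue. CHLASE1 also separated the groups, at 16.7, 15.0 and 12.4 FPKM against 18.8, 20.9 and 21.1 FPKM. PSADB and PSAE, of photosystem I, overlapped between the groups, at 0.632 to 7.38 FPKM in all. The part of these genes in the result for CYP707A3 was not tested.

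CYP707A3 had the lowest coverage of the 8 genes, at 5.37 to 8.05 reads per base. Its spread within groups was small, with smaller values in 8.46% of the genes tested. The pseudocount of 1 is close to its level, and with a pseudocount of 0.1 the log2 difference was -0.39.

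CYP707A4, on NC_023048.1 from 25798889 to 25802140, was the removal gene that varied most. It stood at 4.16, 2.60 and 5.61 FPKM with salicylic acid and at 9.40, 3.34 and 3.58 FPKM without. Yeast-only replicate 1 was far above the other libraries and alone put the mean of the yeast group higher. The log2 difference was -0.25 (95% interval -1.06 to 0.56), 0.16 without yeast-only replicate 1 and -0.02 without salicylic acid replicate 2.

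CYP707A2, another gene of this family on the fixed list, was too low to enter the test. It stood at 0.237, 0.356 and 0.107 FPKM with salicylic acid and at 0.580, 0.661 and 0.424 FPKM without, so the groups did not overlap. Coverage was 0.512 to 3.22 reads per base, and with no filter on low values its log2 difference was -0.34 (SE 0.11, unadjusted p = 0.0162, adjusted p = 0.943 in limma over 25861 genes). Among the 4 CYP707A genes found by symbol, CYP707A1 thus had higher mean levels with salicylic acid and the other 3 genes lower ones. For CYP707A4 this held only with yeast-only replicate 1 included, and none of the 4 passed.

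CYP707A1 made up most of the summed level of the 4 CYP707A genes found by symbol in each library. Genes of the family without such a symbol were not sought. It held 85.2%, 91.0% and 81.2% of the summed FPKM of the 4 CYP707A genes with salicylic acid, and 64.7%, 85.0% and 81.7% without. Yeast-only replicate 1 stood lowest, where CYP707A1 was at its minimum and CYP707A4 at its maximum. In the other libraries the shares of both groups overlapped.

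AOG is named for the abscisic acid glucosyltransferase described in adzuki bean, which makes the glucose ester. It lies on NC_023053.1 from 2929723 to 2931185, on the same sequence as CYP707A3. It stood at 5.62, 5.75 and 7.83 FPKM with salicylic acid and at 6.13, 8.82 and 6.63 FPKM without. The highest library was yeast-only replicate 2 and the next salicylic acid replicate 3. The log2 difference was -0.15 (95% interval -0.58 to 0.29), and -0.008 without yeast-only replicate 2.

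**Figure D3:**
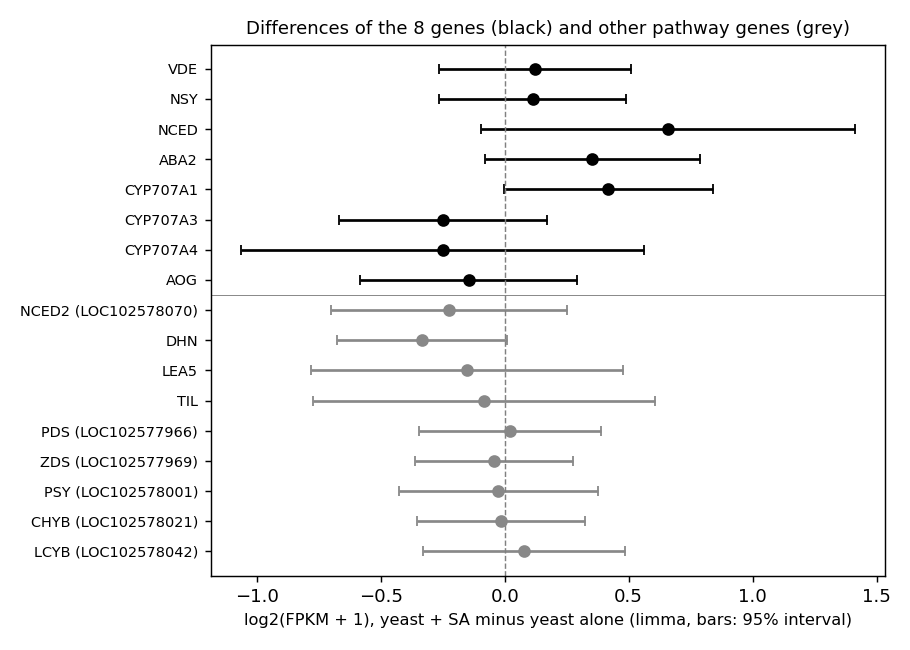
Difference in log2(FPKM + 1), yeast with salicylic acid minus yeast alone, for the 8 genes in black and 9 other tested genes of the fixed pathway lists in grey, with 95% intervals from limma. The intervals of all 8 genes include 0, and that of NCED is among the widest, from -0.10 to 1.41.

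Both sides were also compared within each library. The 4 synthesis genes summed to 49.0, 72.9 and 40.2 FPKM with salicylic acid and to 45.8, 38.4 and 32.7 FPKM without. The 4 removal genes summed to 44.3, 52.8 and 44.1 FPKM with salicylic acid and to 39.3, 45.5 and 36.5 FPKM without. Both sums overlapped between the groups, and both were highest in salicylic acid replicate 2 and lowest in yeast-only replicate 3. Without VDE, which works against the flow toward the hormone, the synthesis sums were 42.7, 65.8 and 35.2 FPKM with salicylic acid. With the yeast alone they were 40.6, 32.7 and 27.0 FPKM, so the groups overlapped here too.

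Synthesis over removal was 1.11, 1.38 and 0.911 with salicylic acid and 1.16, 0.843 and 0.895 without. These sums are led by NCED, with 32.7% to 57.7% of the synthesis sum, and by CYP707A1, with 55.6% to 81.7% of the removal sum. With each gene weighted equally, the mean log2 level of synthesis genes exceeded that of removal genes by 0.73, 1.12 and 0.39 with salicylic acid and by 0.42, 0.34 and 0.38 without. Salicylic acid replicates 1 and 2 lay above all yeast-only libraries, and salicylic acid replicate 3 lay among them. VDE counts as a synthesis gene in this mean. NCED over CYP707A1, the committed step against the most expressed hydroxylase gene, was 0.689, 0.975 and 0.571 with salicylic acid and 0.964, 0.539 and 0.431 without. No test was made on these sums and ratios.

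Variation over the libraries was compared for the 28 pairs of members by correlation of log2(FPKM + 1), with p-values from an exact two-sided permutation test over all 720 orderings of the libraries. These orderings mix libraries of both groups and treat them as exchangeable, so a difference between the groups can enter r and its p-value. NCED and ABA2, which catalyse successive steps, were the closest pair. Pearson's r was 0.979 (exact permutation p = 0.00278, adjusted over the 28 pairs 0.0778) and Spearman's rho was 0.943 (exact permutation p = 0.0167, adjusted 0.467). Both genes were highest in salicylic acid replicate 2, next in salicylic acid replicate 1, and lowest in yeast-only replicate 3.

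With 6 libraries the smallest exact permutation p that rho allows is 0.00278. A pair with that p, with no other small p-values, is adjusted to 0.0778 and cannot pass alone by rho. The pair of NCED and ABA2 did not pass the adjusted threshold. Without salicylic acid replicate 2 and yeast-only replicate 3, the libraries farthest from the median of NCED, r was 0.789 over 4 libraries. Leaving out any 1 library gave 0.959 to 0.985. With annotated ABA2 transcripts alone r was 0.892 (exact permutation p = 0.0306, adjusted 0.428). With median-of-ratios scaling r was 0.979 (exact permutation p = 0.00417, adjusted 0.117). Within each group the order of the libraries was the same for both genes. After the group means were subtracted r was 0.973 (permutation p = 0.00139, adjusted 0.0389) and rho was 1 (permutation p = 0.00278, adjusted 0.0389), in a test that treats the centred values as exchangeable. Values centred by group are not exchangeable between groups, so these p-values can be too small and the pair is not taken as passing.

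NSY and AOG varied in opposite directions, with r = -0.840 (exact permutation p = 0.0264, adjusted 0.369) and rho = -0.771 (exact permutation p = 0.103, adjusted 0.476). The relation was -0.676 over 4 libraries without yeast-only replicates 1 and 2. Yeast-only replicate 2 was the lowest library for NSY and the highest for AOG, and without it r was -0.58. With median-of-ratios scaling r was -0.713, with an exact permutation p of 0.103. After the group means were subtracted r was -0.818 (permutation p = 0.00556, adjusted 0.0778) and rho was -0.943 (permutation p = 0.0167, adjusted 0.156). The limit given above for p-values of centred values holds here too.

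NCED and CYP707A1, the leading gene of each side, had r = 0.715 and rho = 0.657 (exact permutation p = 0.103 and 0.175, adjusted 0.411 and 0.490). The value rested on single libraries. Without salicylic acid replicate 2, where both genes peaked, r was 0.26, and without yeast-only replicate 1, where NCED was the third highest and CYP707A1 lowest, it was 0.99. Over the 4 libraries nearest to the median of NCED it was -0.182.

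CYP707A1 and CYP707A4, of the same family, had r = -0.766 and rho = -0.714 (exact permutation p = 0.0806 and 0.136, adjusted 0.411 and 0.476). Without salicylic acid replicate 2 and yeast-only replicate 1 r was 0.119. Within each group, the order of the libraries for one gene was the reverse of that for the other. After the group means were subtracted, rho was -1 (permutation p = 0.00278, adjusted 0.0389) and r was -0.846 (permutation p = 0.0347, adjusted 0.324). As above, that test treats centred values of both groups as exchangeable, so these p-values can be too small and the pair is not taken as passing.

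**Figure D4:**
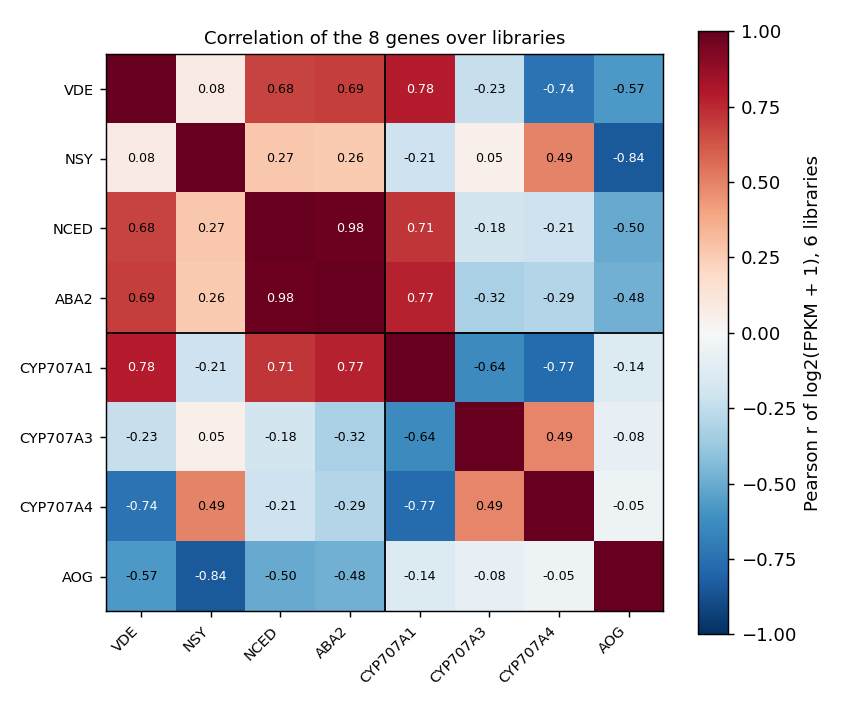
Pearson's r of log2(FPKM + 1) over the 6 libraries for each pair of the 8 genes, with lines between synthesis and removal genes. NCED with ABA2 gives the highest value, 0.98, and NSY with AOG the lowest, -0.84.

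Over all 28 pairs r was positive in 12 and negative in 16, with 2 at an unadjusted p under 0.05 in the exact permutation test and 0 after adjustment. With 6 libraries, few possible p-values are small enough to pass over 28 pairs. The 0 therefore does not show that the pairs are unrelated. The 6 pairs within synthesis were all positive, with a median r of 0.47, although VDE and NSY were at 0.08. This rested partly on salicylic acid replicate 2, without which the median was 0.22, VDE with NCED fell from 0.68 to 0.096 and VDE with ABA2 from 0.69 to -0.024. VDE with NSY was at -0.047 without salicylic acid replicate 1 or yeast-only replicate 2. Of the 6 pairs within removal 5 were negative, with a median of -0.11, the exception being CYP707A3 with CYP707A4 at 0.49, which turned to -0.535 without yeast-only replicate 1. Of the 16 pairs between both sides 11 were negative, and 7 without salicylic acid replicate 2. The pairs share libraries and genes and are not independent.

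**Figure D5:**
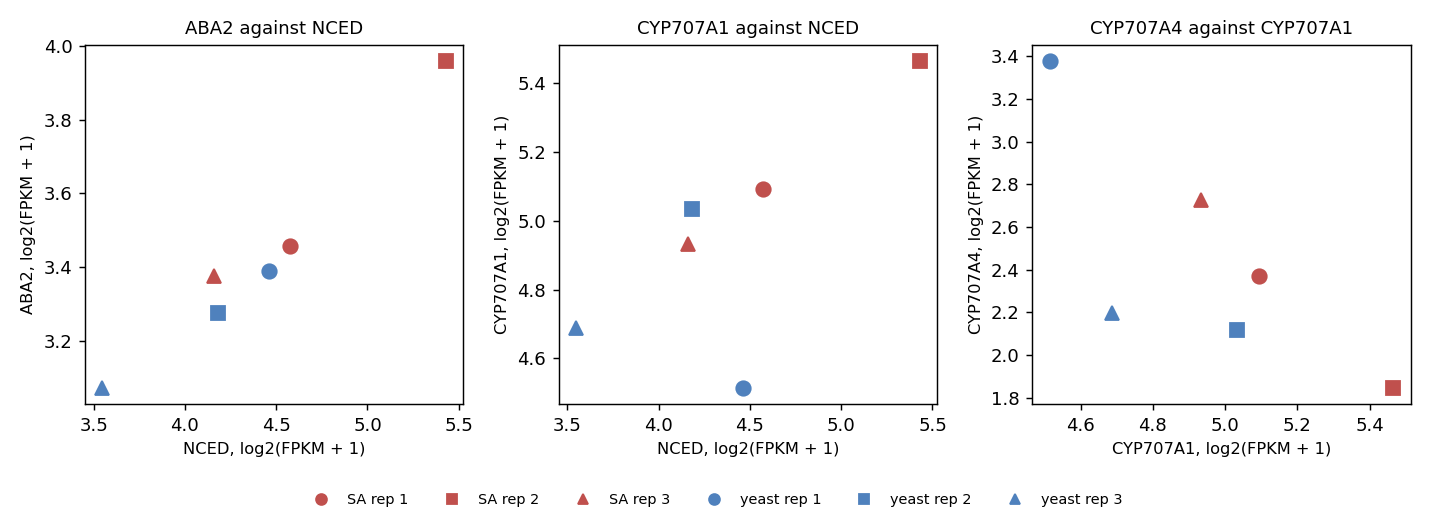
Scatter of log2(FPKM + 1) over the 6 libraries for ABA2 against NCED, CYP707A1 against NCED, and CYP707A4 against CYP707A1, with colour for the group and shape for the replicate. Salicylic acid replicate 2 lies at an end of each plot, and without it r of NCED and CYP707A1 is 0.26.

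Genes upstream in the carotenoid pathway had small mean differences between the groups. Of 36 symbols on the fixed list, 5 were measured and tested. By mean log2 level 2 were higher and 3 lower, and 0 passed, with a median of -0.01. The hydroxylase gene LOC102578021 (CitHYb), which makes zeaxanthin, was at 316 against 320 FPKM, and the phytoene synthase gene LOC102578001 (CitPSY), which opens the pathway, at 36.4 against 37.7 FPKM. LOC102577969 (CitZDS), LOC102577966 (CitPDS) and LOC102578042 (CitLCYb), for desaturases and a lycopene cyclase, had log2 differences of -0.04, 0.02 and 0.08. Differences of all 5 genes lay between -0.04 and 0.08, below that of each of the 8 members in size, with 95% intervals reaching from -0.43 to 0.48.

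On a fixed list of genes taken as linked to the hormone or to stress, 3 of 8 symbols were measured. All 3 were lower in mean log2 level with salicylic acid, and 0 passed, with a median log2 difference of -0.15. The dehydrin gene DHN had 537, 451 and 501 FPKM with salicylic acid, against 713, 561 and 606 FPKM without, a difference of -0.33 (SE 0.15, adjusted p = 0.960 in limma). LEA5 reached 6521 FPKM and TIL 1198 FPKM in yeast-only replicate 1, the library in which CYP707A3, CYP707A4 and NSY were also highest. Without that library the yeast-only means were 3466 FPKM for LEA5 and 569 FPKM for TIL, below the 3859 and 681 FPKM with salicylic acid. Of 27 symbols for receptors and signalling of the hormone 0 matched a name.

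The named genes most like 3 of the members over the 6 libraries were sought among 97 tested genes with a symbol. For NCED they were PECS-1.1, psbM and ARF, with r of 0.826, 0.712 and 0.690. For CYP707A1 they were rps15, PECS-1.1 and rpoA, with 0.818, 0.798 and 0.781. For CYP707A3 they were UGT3, DHN and TPS1, with 0.892, 0.882 and 0.859. Among the genes listed, psbM, rps15 and rpoA belong to the chloroplast genome and were low, at 0.964 to 5.78 FPKM. Values of r reached 0.9 with 1.21%, 1.43% and 1.03% of the other 17354 genes for NCED, CYP707A1 and CYP707A3. Of the 97 named genes 0 reached 0.9 with any of these 3 members. The share of all genes at the lower values listed was not computed, so the list does not show that such likeness is rare.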

How the data were processed

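The labels' protocols name Illumina HiSeq sequencing of total RNA. No aligner, assembler or genome build is given in the sources used here. The deposited transcript table of each library holds, per the file headers, an FPKM value and a coverage signal (mean reads per base) per transcript, with replicates not pooled, and MSTRG identifiers mark assembled transcripts. Depth is the ratio of coverage to FPKM. A gene table by the authors holds a signal in another unit: for the 8 genes, summed FPKM times length divided by it gave one whole number per gene in all libraries (108 for NCED), so it served as an alternative.

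FPKM was summed by gene name. Where the mean was at least 1 FPKM, log2(FPKM + 1) entered limma (version 3.58.1, R 4.3.3, data.table version 1.17.8), whose moderated two-sided test used a mean-variance trend, with Benjamini-Hochberg adjustment over all features. A fold change on this scale understates the change of low genes. The test was tested on simulated data. Correlations used scipy 1.17.1 and pandas 2.3.3, and figures matplotlib 3.10.9, in Python 3.11.15.

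The members and gene lists were chosen with earlier results of these data known. Named genes are the 8 members, matches of the fixed lists by symbol or synonym (reference assembly DVS_A1.0, used for names; 23518 of 31688 gene identifiers matched), and the 3 named genes most like NCED, CYP707A1 and CYP707A3. Alternatives changed the pseudocount, filter, scaling, block, transcripts summed and libraries.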

Additional observations from a re-analysis of the deposited data

How the results depend on the processing

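No member passed in any of 14 alternatives over genes or 10 over transcripts, and members at an unadjusted p under 0.05 were 0 in the main test and 2, NCED and CYP707A1, with the replicate block. Of 110 log2 differences of members under the alternatives, 108 kept their direction, and 2 turned, NSY without yeast-only replicate 2 and CYP707A4 without yeast-only replicate 1. With 1 library left out NSY ranged from -0.020 to 0.22 and CYP707A4 from -0.47 to 0.16. The number of all genes past the threshold, 1, was 2 with a pseudocount of 0.1, with the replicate block and with the deposited gene table, 0 in limma when annotated transcripts alone were summed (806 genes with an unadjusted p under 0.05), and 1 to 5 with 1 library left out. The 9 transcripts became 5 with a pseudocount of 0.1 or no filter, 4 with a mean of at least 5 FPKM, 0 with the replicate block (limma, 1475 at an unadjusted p under 0.05) and 2 to 19 with 1 library left out. Equal replicate numbers share only a number: deviations of such libraries correlated at 0.114, 0.188 and -0.009, and not every library correlated best with its own number. Pairs of members with an adjusted p under 0.05 went from 0 to 1 by Pearson's r, NCED with ABA2, once group means were subtracted. By Spearman's rho they went from 0 to 2, with CYP707A1 and CYP707A4 as well. Centred values are not exchangeable between the groups, so these p-values can be too small and the pairs are not taken as passing. The causes were not tested. CYP707A3 and CYP707A4 gave no value at a mean of at least 5 FPKM. Low coverage limits CYP707A3, and 3 libraries a group limit all members.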
